A study of Homo sapiens with 32 samples.

Results

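The genes described here are 8 that encode secreted proteins of the prostate gland: the kallikreins *KLK2*, *KLK3*, *KLK4*, *KLK15*, and *KLK11*, together with *ACPP* (also named *ACP3*), *MSMB*, and *AZGP1*. They were taken by symbol from the 25498 genes in the expression tables of LNCaP, an androgen-responsive human prostate cancer cell line that was derived from a lymph node metastasis. Of the 8, 7 had at least 5 counts in at least 3 of the 32 libraries and were tested, and *KLK11* did not. The cells were grown in medium with whole fetal bovine serum (FBS) or moved to charcoal-stripped serum (CSS), which removes androgens and other steroids from the medium. Cells in CSS received no ligand, or 100 ng/mL of EGF (a ligand of EGFR) or of NRG-1 (a ligand of HER3 and HER4), for 5 minutes, 1 hour, or 4 hours before RNA extraction. These 8 groups held 4 libraries each, 2 replicates in each of 2 batches, and the values of 4 libraries are given below in the order batch 1 replicate 1, batch 1 replicate 2, batch 2 replicate 1, batch 2 replicate 2. The comparison of FBS with CSS covers everything that differs between the sera, androgens or not, and all libraries come from a single cell line.

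Tissue kallikreins are serine proteases made as inactive precursors and encoded by a cluster of neighbouring genes on chromosome 19. *KLK3* encodes prostate-specific antigen (PSA), which cleaves the gel-forming proteins of semen, and *KLK2*, *KLK4*, and *KLK15* encode trypsin-like or related proteases that can activate its precursor. Transcription of *KLK2* and *KLK3* in luminal prostate cells is induced by androgens, through androgen response elements in their promoters and upstream enhancers. *ACPP* encodes prostatic acid phosphatase, *MSMB* encodes beta-microseminoprotein, and *AZGP1* encodes zinc-alpha-2-glycoprotein, which are other abundant proteins of seminal fluid.

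*KLK2* and *KLK3* are close paralogs, and their promoters are shown because the same stretch holds the best match to an androgen response element in each. RefSeq sequence of the GRCh38.p14 build was used for the 250 bases before each start site, chr19:50873189-50873438 for *KLK2* and chr19:50854665-50854914 for *KLK3*, both on the plus strand. Capitals mark the window that best matches the palindrome made of AGAACA, any 3 bases, and TGTTCT, which reads the same on both strands and has 12 fixed positions.
KLK2 promoter: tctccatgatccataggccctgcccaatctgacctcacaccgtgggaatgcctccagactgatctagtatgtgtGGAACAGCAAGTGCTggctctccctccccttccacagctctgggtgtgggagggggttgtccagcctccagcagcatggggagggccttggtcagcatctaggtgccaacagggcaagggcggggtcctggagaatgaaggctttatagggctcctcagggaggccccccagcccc
KLK3 promoter: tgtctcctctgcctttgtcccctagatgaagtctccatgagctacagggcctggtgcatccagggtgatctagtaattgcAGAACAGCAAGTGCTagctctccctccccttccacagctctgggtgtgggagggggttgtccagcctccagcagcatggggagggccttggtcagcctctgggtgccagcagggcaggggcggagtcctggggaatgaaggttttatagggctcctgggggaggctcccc

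The *KLK3* window spans -170 to -156 from the start site and matches 10 of the 12 positions, and 1.41% of 35116 RefSeq promoters of the same 300-base length hold a match of 10 or more. The *KLK2* window spans -176 to -162 and matches 9, a level reached in 10.81% of promoters. From *KLK3* to *KLK2* the windows differ by the substitution A1G, counted from the 5′ end of the window, and the 250-base stretches were identical in 205 of 259 aligned columns (79.151%). The entries of the other 5 genes present in the promoter table reached 6 to 8 positions, and a match of 8 or more was in 47.041% of promoters. None of the entries of the 7 genes held the AP-1 letters TGANTCA, which are in 7.709% of promoters. *MSMB* had no entry. These are matches of letters and not measured binding.

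The depth was 63822654 to 92401724 expected counts per library (median 77866194). The luminal keratins *KRT8* and *KRT18* were at 306 to 1743 and 325 to 1083 TPM (a transcript level scaled for transcript length and library size), whereas the basal markers *KRT5* and *TP63* did not exceed 0.02 and 0.03 TPM, the leukocyte markers *PTPRC* and *CD3E* did not exceed 0.04 and 0.02 TPM, and the neuroendocrine marker *CHGA* did not exceed 0.04 TPM. Between CSS and EGF at 4 hours the summed luminal list (5 genes) went from 1332 to 1636 TPM up to 2766 to 3387 TPM, while the immune list (4 genes) went from 3.33 to 4.08 TPM up to 12.2 to 16.3 TPM through *CD68*, a lysosomal gene that epithelial cells also express. The basal list (4 genes) was at 0.05 to 0.26 TPM in CSS and 0.85 to 2.18 TPM in FBS, mainly *KRT14*. The neuroendocrine list (7 genes) was at 20.1 to 33.5 TPM in CSS and 43.5 to 67.8 TPM after 4 hours of EGF, mainly *ENO2*, and the fibroblast and smooth muscle list (6 genes) at 19.7 to 24.3 and 27.2 to 31.3 TPM. The luminal sum was 926 to 1494 TPM in FBS and 2008 to 3223 TPM after 4 hours of NRG-1, where the immune sum was 6.64 to 10.9 TPM. The part of these shifts in the results below was not tested, and in bulk RNA fewer cells of a type and less RNA per cell cannot be told apart.

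KLK2 and KLK3 were far higher in FBS than in CSS. The level of *KLK3* was 2824, 2673, 2210, and 2062 TPM in FBS and 212, 289, 316, and 315 TPM in CSS, and its reads made up 0.191% to 0.227% of all counts in FBS against 0.0170% to 0.0264% in CSS. *KLK2* was at 158, 152, 113, and 108 TPM in FBS and at 8.63, 12.75, 8.70, and 8.33 TPM in CSS. For both genes every FBS library lay several times above every CSS library. In the edgeR quasi-likelihood fit over all 32 libraries, with batch as a term and Benjamini-Hochberg adjustment over 16995 genes, *KLK2* was 15.8-fold higher in FBS (log2 fold change 3.99, SE 0.12, adjusted *P* = 6.19e-20). In the same edgeR fit *KLK3* was 10.0-fold higher (log2 fold change 3.33, SE 0.12, adjusted *P* = 5.01e-19).

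The other kallikreins moved by less. *KLK4*, a protease also needed in tooth enamel, was at 313, 252, 190, and 142 TPM in FBS and at 118, 135, 98.2, and 88.8 TPM in CSS. Its groups did not overlap, although the lowest FBS library (142 TPM) and the highest CSS library (135 TPM) lay close together and came from different batches. The edgeR log2 fold change was 1.18 (SE 0.07, adjusted *P* = 6.82e-15). *KLK15* was a low-level gene, at 3.30, 3.51, 2.84, and 2.60 TPM in FBS and 1.21, 0.95, 1.23, and 1.40 TPM in CSS, without overlap (log2 fold change 1.51, SE 0.15, edgeR adjusted *P* = 2.34e-09). *KLK11* had 0 counts in 25 of 32 libraries and never more than 4 counts. A count of 0 allows up to 3 counts in a library, or 0.0325 to 0.0470 CPM (counts scaled to library size, counting error only), so *KLK11* was not detectable at this depth in most libraries and no change could be read.

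*ACPP* went the other way. Its level was 78.5, 73.7, 39.8, and 32.5 TPM in FBS and 197, 184, 126, and 136 TPM in CSS. Every CSS library was above every FBS library, and within each group batch 1 was the higher (edgeR log2 fold change -1.39, SE 0.11, adjusted *P* = 1.04e-11). *MSMB* was at 5.37, 7.48, 7.30, and 8.63 TPM in FBS and at 1.08, 0.88, 1.04, and 1.93 TPM in CSS, without overlap (edgeR log2 fold change 2.72, SE 0.22, adjusted *P* = 3.61e-11). It had 8 to 119 counts in a library, so its estimates were the least precise of the 7. *AZGP1* was at 21.0, 20.7, 32.5, and 32.3 TPM in FBS and at 7.76, 8.98, 14.8, and 17.7 TPM in CSS (edgeR log2 fold change 1.36, SE 0.13, adjusted *P* = 1.42e-09). Its groups did not overlap, and in both of them batch 2 was the higher.

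**Figure D1:**
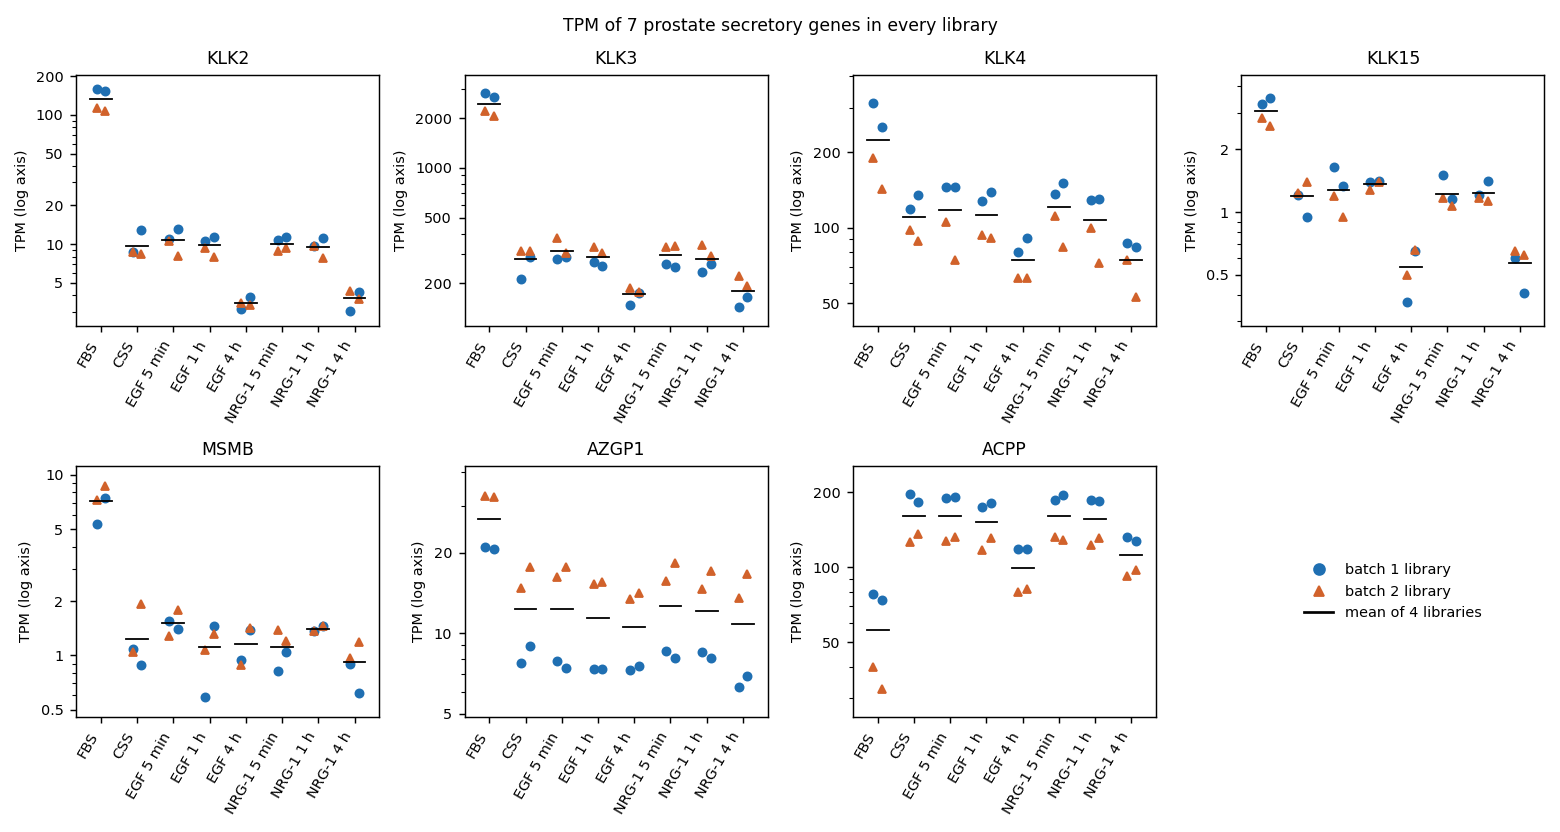
TPM (log axis) of the 7 tested genes in each of the 32 libraries, by group. Circles are batch 1 libraries, triangles are batch 2 libraries, and lines are means of 4 libraries. The 4 FBS libraries are above all others for *KLK2*, *KLK3*, *KLK15*, *MSMB*, and *AZGP1* and below all others for *ACPP*, and the 4-hour groups are lower than CSS for *KLK2* and *KLK15*.

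Of the 7 genes tested, 6 were higher and 1 lower in FBS than in CSS at adjusted *P* below 0.05 in the edgeR fit, and all 7 also passed the study's limit of a log2 fold change beyond 1. Over all 16995 genes 26% were higher and 26.8% lower, and 4.91% and 3.8% passed the fold limit as well. The groups did not overlap for any of the 7, in TPM, which held for 10.2% of all genes in the higher and 21.3% in the lower direction. The median log2 fold change was 1.51 over the 7 genes and -0.01 over all genes. Within batch 1 and within batch 2 taken alone, each of the 7 kept its direction and its side of the threshold in the same edgeR test. The log2 fold change of *KLK3* was 3.60 in batch 1 and 3.02 in batch 2, and that of *ACPP* was -1.18 and -1.62.

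The order of the genes by level (TPM, mean ± SD, n = 4) differed between the sera. In FBS *KLK3* led with 2442 ± 364 TPM, followed by *KLK4* (224 ± 74.4 TPM), *KLK2* (133 ± 26.3 TPM), *ACPP* (56.1 ± 23.3 TPM), *AZGP1* (26.6 ± 6.67 TPM), *MSMB* (7.20 ± 1.35 TPM), and *KLK15* (3.06 ± 0.416 TPM). *KLK4* and *KLK2*, and *ACPP* and *AZGP1*, were neighbours whose libraries overlapped in FBS. In CSS the order was *KLK3* (283 ± 48.9 TPM), *ACPP* (161 ± 34.6 TPM), *KLK4* (110 ± 20.6 TPM), *AZGP1* (12.3 ± 4.71 TPM), *KLK2* (9.60 ± 2.10 TPM), *MSMB* (1.23 ± 0.473 TPM), and *KLK15* (1.20 ± 0.186 TPM). The libraries overlapped there between *ACPP* and *KLK4*, between *AZGP1* and *KLK2*, and between *MSMB* and *KLK15*.

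No change of these genes was detected after 5 minutes or 1 hour of stimulation. After 5 minutes of EGF, *KLK2* was at 11.0, 13.0, 10.5, and 8.14 TPM and *KLK3* at 280, 291, 378, and 306 TPM, ranges that overlapped those of CSS. After 1 hour of EGF they were at 10.5, 11.4, 9.32, and 7.94 TPM and at 269, 254, 331, and 307 TPM. With NRG-1 the ranges of *KLK2* were 8.89 to 11.4 TPM at 5 minutes and 7.80 to 11.1 TPM at 1 hour, and those of *KLK3* were 251 to 336 TPM and 234 to 343 TPM. Against CSS, 0 of the 7 genes passed for either ligand at either time, and 0 had an unadjusted *P* below 0.05 in the edgeR fit. The DESeq2 Wald test also passed none of the 7. Over all genes 0.00588% passed for EGF and 0% for NRG-1 at 5 minutes, and 9.51% and 6.73% passed at 1 hour. At 1 hour the 95% interval of the log2 difference from CSS was -0.24 to 0.22 for *KLK2* and -0.22 to 0.22 for *KLK3* with EGF, and -0.17 to 0.30 and -0.16 to 0.29 with NRG-1. For *MSMB*, with few counts, the interval with EGF was wider, -0.81 to 0.34.

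Across CSS and these 4 early groups (20 libraries), *KLK2* stayed between 7.80 and 13.04 TPM, *KLK4* between 72.5 and 151 TPM, *KLK15* between 0.95 and 1.65 TPM, and *ACPP* between 117 and 197 TPM. The means of the 5 groups ranged from 9.55 to 10.7 TPM for *KLK2*, from 283 to 314 TPM for *KLK3*, and from 152 to 161 TPM for *ACPP*. For each of these 3 genes the span of the means was smaller than the SD of the CSS libraries.

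At 4 hours 5 of the 7 genes were lower than in CSS with either ligand. The labels give the CSS libraries no time, and no vehicle is named for them. Effects of the ligand and of hours spent in CSS therefore cannot be told apart, here or between 4 hours and 1 hour. *KLK2* was at 3.15, 3.88, 3.47, and 3.37 TPM with EGF and at 3.01, 4.28, 4.29, and 3.72 TPM with NRG-1, and all 8 of these libraries lay below all 20 libraries of the CSS and early groups. *KLK2* was 2.59-fold lower with EGF (edgeR log2 fold change -1.37, SE 0.12, adjusted *P* = 9.49e-11) and 2.30-fold lower with NRG-1 (-1.20, SE 0.12, adjusted *P* = 1.90e-09). *KLK15* was at 0.37, 0.65, 0.50, and 0.66 TPM with EGF and at 0.60, 0.41, 0.65, and 0.62 TPM with NRG-1, again with all 8 libraries below all 20. The edgeR log2 fold changes of *KLK15* were -1.11 (SE 0.18, adjusted *P* = 8.15e-06) and -1.02 (SE 0.18, adjusted *P* = 3.83e-05).

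*KLK3* fell by less. It was at 148, 175, 188, and 178 TPM with EGF, below every CSS library, and at 143, 165, 221, and 192 TPM with NRG-1, where 1 library (221 TPM, batch 2) was above the lowest CSS library (212 TPM, batch 1). The edgeR log2 fold changes were -0.63 (SE 0.11, adjusted *P* = 1.66e-05) and -0.55 (SE 0.11, adjusted *P* = 1.28e-04). At its 4-hour level *KLK3* was still the highest of the 7 genes, with means of 172 ± 17.1 TPM and 180 ± 33.4 TPM (SD, n = 4).

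*KLK4* was at 80.3, 91.1, 63.2, and 63.3 TPM with EGF and at 86.7, 84.1, 74.5, and 52.8 TPM with NRG-1. The EGF libraries overlapped those of CSS across batches (91.1 TPM against 88.8 TPM), while within each batch every 4-hour library was below both CSS libraries. The edgeR log2 fold changes, which account for batch, were -0.49 (SE 0.07, adjusted *P* = 3.15e-07) and -0.47 (SE 0.07, adjusted *P* = 8.77e-07). *ACPP* was at 119, 118, 79.8, and 82.0 TPM with EGF and at 132, 127, 92.5, and 97.3 TPM with NRG-1, so that this gene, which was lower in FBS than in CSS, was also lower at 4 hours. Its edgeR log2 fold change was -0.56 with EGF (SE 0.11, adjusted *P* = 5.64e-05) and -0.36 with NRG-1 (SE 0.11, adjusted *P* = 0.00731). The NRG-1 call for *ACPP* was lost without the batch term (adjusted *P* = 0.202) and in batch 2 alone (log2 fold change -0.31, adjusted *P* = 0.351), and that of *KLK4* without the batch term (adjusted *P* = 0.0512), all with edgeR.

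*MSMB* and *AZGP1* did not pass at 4 hours. *AZGP1* was at 7.28, 7.52, 13.4, and 14.1 TPM with EGF and at 6.29, 6.93, 13.5, and 16.6 TPM with NRG-1, ranges that overlapped those of CSS. Its edgeR log2 differences were -0.14 (95% interval -0.42 to 0.14, adjusted *P* = 0.438) and -0.10 (-0.38 to 0.17, adjusted *P* = 0.576). *MSMB* was at 0.94, 1.38, 0.88, and 1.41 TPM and at 0.90, 0.62, 0.97, and 1.19 TPM, with intervals of -0.60 to 0.53 and -0.94 to 0.25. The NRG-1 interval of *MSMB* includes the -0.55 found for *KLK3*, while the intervals of *AZGP1* do not reach the change of *KLK2* with either ligand.

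With EGF 5 genes fell and 0 rose at 4 hours, where 24.6% of all genes fell at adjusted *P* below 0.05 in the edgeR fit. With NRG-1 5 fell and 0 rose, where 21% of all genes fell. *KLK2* and *KLK15* also passed the fold limit with each ligand, which 3.7% of all genes passed in the lower direction with EGF and 2.54% with NRG-1. The groups did not overlap in TPM for 4 of the 7 genes with EGF and 3 with NRG-1, which held for 21.3% and 16.2% of all genes in the lower direction. The median log2 fold change of the 7 was -0.56 with EGF and -0.47 with NRG-1, against -0.02 and -0.01 over all genes. The FBS, EGF, and NRG-1 comparisons share the 4 CSS libraries, so their values are not independent. The 4-hour groups compared with the 1-hour groups of the same ligand, which use no CSS library, gave log2 fold changes of -1.37 (EGF) and -1.27 (NRG-1) for *KLK2*, -1.21 and -1.08 for *KLK15*, -0.64 and -0.62 for *KLK3*, -0.48 and -0.49 for *KLK4*, and -0.45 and -0.40 for *ACPP*. The same 5 genes passed in the edgeR fit of both of these comparisons, where 21.5% and 18.5% of all genes fell. *ACPP* did not pass them in batch 2 alone (edgeR adjusted *P* = 0.109 and 0.319) or without the batch term (0.115 and 0.166), and *MSMB* had log2 differences of 0.20 and -0.53 (adjusted *P* = 0.607 and 0.156).

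**Figure D2:**
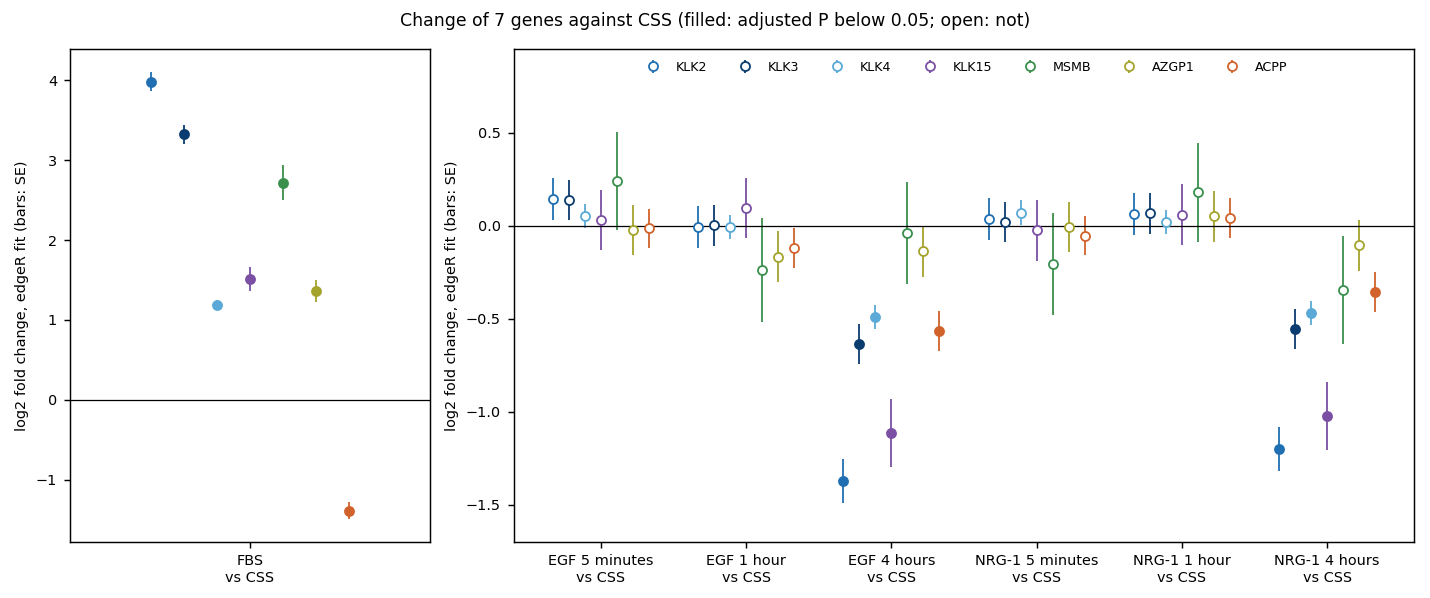
Log2 fold change against CSS from the edgeR fit (points) with its SE (bars) for the 7 tested genes, in FBS (left) and for each ligand and time (right). Filled points passed adjusted *P* below 0.05. All 7 points are filled for FBS, none at 5 minutes or 1 hour, and 5 at 4 hours for each ligand, with *KLK2* lowest at -1.37 and -1.20.

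EGF and NRG-1 were then compared directly at each time. Of the 7 genes 0 passed at 5 minutes, 1 hour, or 4 hours, and 0 had an unadjusted *P* below 0.05 in the edgeR fit, where 0%, 1.06%, and 1.66% of all genes passed. The DESeq2 Wald test also passed none of the 7. The 4-hour log2 difference (EGF minus NRG-1) was -0.17 for *KLK2* (95% interval -0.42 to 0.08) and -0.08 for *KLK3* (-0.30 to 0.14). For *ACPP* it was -0.21 (-0.43 to 0.01, adjusted *P* = 0.480). These intervals leave room for modest differences between the ligands.

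Because the paralogs fell by different amounts, the ratio of *KLK3* to *KLK2* in TPM was followed in each library. Its test below is thus on a contrast that these same libraries had already shown. The ratio was 17.8, 17.6, 19.6, and 19.2 in FBS and 24.6, 22.6, 36.3, and 37.8 in CSS. The EGF libraries at 4 hours had ratios of 46.9, 45.1, 54.0, and 52.7, and the NRG-1 libraries had 47.7, 38.6, 51.4, and 51.7. All FBS libraries were below, and all 4-hour libraries above, every CSS library, and batch 2 was above batch 1 in CSS. The early groups ranged from 22.0 to 38.6, slightly wider than CSS on both sides, and their highest library (EGF at 1 hour, batch 2) was level with the lowest NRG-1 library at 4 hours (38.6, batch 1). The mean log2 ratio differed from CSS by -0.67 in FBS, 0.75 with EGF at 4 hours, and 0.67 with NRG-1 at 4 hours. Within each batch, every FBS library was below and every 4-hour library above both CSS libraries, with differences in batches 1 and 2 of -0.41 and -0.93 for FBS, 0.96 and 0.53 for EGF, and 0.86 and 0.48 for NRG-1. Each of the 3 pooled differences had *P* = 0.0286 in a 2-sided exact permutation test of 4 against 4 libraries, which takes no account of batch, and 0.0286 is the smallest value that the 70 arrangements allow. The exact permutation value was 0.0667 after adjustment over the 7 comparisons, so the 3 differences did not pass. They were as extreme as this exact test can show, and 3 of 7 comparisons at its floor cannot adjust below 0.0667. The adjusted test thus could not decide on these 3 differences. Its value was also 0.0667 with each batch centred on its mean. Pairing libraries of the same batch and number gave 0.292 in an exact sign-flip permutation test, whose floor is higher still. At 5 minutes and 1 hour the differences lay between -0.02 and 0.01 (exact *P* = 0.743 to 1).

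**Figure D3:**
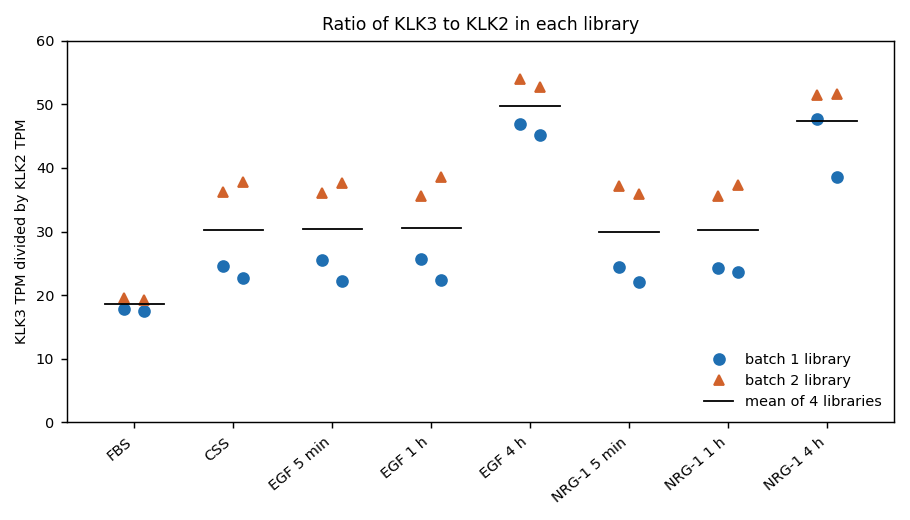
KLK3 TPM divided by KLK2 TPM in each library, by group, with circles for batch 1, triangles for batch 2, and lines for means of 4 libraries. The FBS libraries lie at 17.6 to 19.6, below all others, and the EGF and NRG-1 4-hour libraries at 38.6 to 54.0, above every CSS library (22.6 to 37.8).

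Reads that match both paralogs could move counts between them, so their shared sequence was examined. Protein-coding transcripts of a GENCODE annotation were used, which may not be the annotation that assigned these reads. Of the 3582 distinct 50-base stretches in *KLK2* transcripts, 11 (0.307%) were also in *KLK3* transcripts, which is 0.438% of the 2511 stretches of *KLK3*. No 100-base stretch was shared. The deposited counts of both genes were exactly whole in all 32 libraries (no tolerance), whereas 11.2% of values over all genes were not. With the counts of both genes added together, the edgeR log2 fold change was 3.38 in FBS (SE 0.12), -0.67 with EGF at 4 hours (SE 0.11, adjusted *P* = 5.74e-06), and -0.59 with NRG-1 at 4 hours (SE 0.11, adjusted *P* = 4.96e-05). The CSS libraries had 13467 to 21794 counts of *KLK3* and 1090 to 1284 of *KLK2*, so the sum mainly follows *KLK3*. It cannot show whether reads moved between the genes.

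The batches differed in most of these genes. In the edgeR fit, a test chosen after the values were seen, 6 of the 7 differed between batches, where 55.6% of all genes did. *AZGP1* was 2.14-fold higher in batch 2 (log2 difference 1.09, SE 0.07, adjusted *P* = 2.27e-13), so its batch difference was of the order of its FBS to CSS difference. *ACPP* and *KLK4* were lower in batch 2 (-0.48 and -0.46), *MSMB* and *KLK3* were higher (0.40 and 0.33), *KLK2* was lower by little (-0.15, adjusted *P* = 0.0244), and *KLK15* did not pass (0.02, adjusted *P* = 0.838). Each group held 2 libraries of each batch.

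The genes' courses over the libraries were compared by Pearson's r of batch-centred log2 CPM, as a description. Over all 32 libraries *KLK2* had r of 0.986 with *KLK3*, 0.982 with *KLK4*, and -0.655 with *ACPP*. Over the 28 libraries without FBS, r was 0.963 with *KLK3*, 0.943 with *KLK4*, 0.892 with *KLK15*, and 0.809 with *ACPP*, and only 0.246 with *MSMB* and 0.299 with *AZGP1*. *ACPP* thus ran against *KLK2* across the sera and with it across the ligand groups. The points share group, normalization, and library, and the FBS libraries dominate the r over all 32.

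Among the 11947 genes whose log2 CPM averaged 1 or more, those with the highest r over the 32 libraries were *SKA1* (0.991), *C19orf48* (0.989), and *NDC80* (0.987) for *KLK2*. For *KLK3* they were *TK1* (0.992), *POLA2* (0.990), and *ELOVL7* (0.989), and for *KLK4* they were *MCCC2* (0.984), *KLK2* (0.982), and *C16orf59* (0.980). For *ACPP* they were *FOLH1* (0.986), which encodes prostate-specific membrane antigen, *LINC00648* (0.982), and *DDC* (0.982). For *AZGP1* they were *KIAA0101* (0.984), *DBI* (0.982), and *GINS1* (0.980). *TK1* encodes thymidine kinase and *POLA2* a DNA polymerase subunit, while *SKA1* and *NDC80* encode parts of the spindle attachment of chromosomes. These r include the FBS libraries, and of these pairs only *KLK4* with *KLK2* was also taken without FBS. *KLK15* and *MSMB* were below the level set for this comparison.

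The rest of the kallikrein family was at or near the limit of detection. Of 10 other kallikrein genes, 3 (*KLK6*, *KLK7*, and *KLK14*) had enough counts to test, and the other 7 never exceeded 4 counts in a library. In FBS against CSS *KLK14* did not pass in the edgeR fit, with 4 to 7 counts in FBS. For *KLK6* and *KLK7* both groups had too few counts (at most 4 in a library) for a test to show a change. *KLK6* and *KLK7*, which are better known from brain and skin, reached 5 counts in the 4-hour libraries alone and so were kept only through the groups where they were high. Their counts are given as a description, with no test. *KLK6* had 1 to 4 counts in the CSS libraries, 49 to 63 counts with EGF, and 52 to 56 counts with NRG-1, that is 0.69 to 1.01 TPM and 0.88 to 1.03 TPM. *KLK7* had 0 or 1 count in CSS, 6 to 16 counts with EGF, and 10 to 15 counts with NRG-1. In the FBS, 5-minute, and 1-hour libraries *KLK6* had at most 3 counts and *KLK7* at most 2 counts. *KLK14* had 3 to 8 counts in CSS and 2 to 14 counts across all libraries, and it did not pass at 4 hours with either ligand (edgeR adjusted *P* = 0.757 for EGF, 0.979 for NRG-1).

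Other secreted proteins of the gland were followed as a list of 10 genes, 7 of them tested. In FBS 3 of the 7 rose and 2 fell, where 26% of all genes rose and 26.8% fell, with a median log2 fold change of 1.15. The rises and the median include *ORM2*, kept only through the group where it was high, so they were not read as a result. *ORM2* and *ORM1*, near-identical genes of a plasma glycoprotein between which reads may be split and of which *ORM2* was kept only through the FBS libraries, were at 0.547 ± 0.0640 TPM and 0.550 ± 0.135 TPM in FBS against 0.125 ± 0.0480 TPM and 0.120 ± 0.0258 TPM in CSS (SD, n = 4). *PLA2G2A*, a secreted phospholipase, was lower in FBS (57.0 ± 32.2 against 145 ± 63.1 TPM). *SPON2*, a matrix protein, was the most abundant, at 890 ± 213 TPM in FBS and 1175 ± 125 TPM in CSS (log2 fold change -0.23). At 4 hours 1 of the 7 rose and 1 fell with each ligand, below the shares of all genes (24.6% in each direction with EGF, 21.6% and 21% with NRG-1), namely *SPON2* (log2 fold change 0.51 with EGF and 0.39 with NRG-1) and *PLA2G2A* (-0.25 and -0.19), where the list's medians were -0.05 and -0.19.

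Inhibitors of kallikreins and related membrane proteases formed a list of 8 genes, 6 of them tested. In FBS 0 of the 6 rose and 4 fell (median log2 fold change -0.21), against 26% and 26.8% of all genes, among them *SPINT1*, a Kunitz-type inhibitor of membrane proteases, at 87.6 ± 20.9 TPM in FBS and 139 ± 9.74 TPM in CSS (log2 fold change -0.49, SE 0.07, edgeR adjusted *P* = 1.91e-06). At 4 hours 3 rose and 1 fell with EGF (median 0.16), where 24.6% of all genes moved each way, and 3 rose and 0 fell with NRG-1 (median 0.10), where 21.6% rose and 21% fell. *ST14*, which encodes the membrane protease matriptase, was at 74.1 ± 7.14 TPM in CSS, 99.8 ± 10.4 TPM with EGF, and 88.5 ± 18.6 TPM with NRG-1. *HPN*, which encodes hepsin, fell with EGF from 131 ± 16.1 to 113 ± 8.33 TPM (log2 fold change -0.15). *A2M*, the plasma protease inhibitor, was a low-level gene with at most 54 counts in a library. It rose from 0.0625 ± 0.0150 TPM to 0.213 ± 0.0287 TPM with EGF (log2 fold change 1.78). In FBS it was at 0.02 TPM, where few counts make the log2 fold change (-1.52, SE 0.37) imprecise.

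The secretory genes were set beside a list of 20 other androgen-induced genes. In FBS 19 of the 20 rose and 1 fell in the edgeR fit, where 26% of all genes rose and 26.8% fell, with a median log2 fold change of 1.27. The largest rises were of *TRPM8*, a cold-sensing channel (6.49 ± 2.75 against 0.588 ± 0.254 TPM, log2 fold change 3.66), and *STEAP4*, a metalloreductase at low level (3.28), and the fall was of *STEAP2* (-0.75). *KLK2* (3.99) thus had a larger log2 fold change than any gene of that list, and *KLK3* (3.33) was exceeded by *TRPM8* alone. At 4 hours this list was split, with 6 of 20 rising and 8 falling with EGF (median -0.09), where 24.6% of all genes moved each way, and 3 rising and 8 falling with NRG-1 (median -0.06), where 21.6% rose and 21% fell. The share rising with EGF was thus near that of all genes. *C1orf116* fell from 41.6 ± 5.15 TPM in CSS to 18.7 ± 1.57 TPM with EGF (log2 fold change -1.08, edgeR adjusted *P* = 3.40e-12) and 18.4 ± 2.60 TPM with NRG-1 (-1.08). *FKBP5*, a chaperone of steroid receptors, rose from 28.5 ± 3.25 TPM to 64.8 ± 4.59 TPM with EGF (1.26) and 59.7 ± 12.5 TPM with NRG-1 (1.15), and *PTGER4*, a prostaglandin receptor, rose by 1.25 and 0.82 on the log2 scale. At 1 hour 3 rose and 1 fell with EGF (6% and 3.51% of all genes) and 2 rose and 2 fell with NRG-1 (4.45% and 2.28%), and at 5 minutes 0 passed.

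Of 6 androgen-repressed genes, 1 rose and 5 fell in FBS (median log2 fold change -0.98), where 26% of all genes rose and 26.8% fell. The falls of *OPRK1*, an opioid receptor, and *UGT2B15*, which conjugates androgens, were -2.09 and -1.67, and *UGT2B11* rose (0.88), although reads may be split within that gene family. At 4 hours 1 of the 6 rose and 3 fell with each ligand (medians -0.32 and -0.20), where 24.6% of all genes fell with EGF and 21% with NRG-1, led by *OPRK1* at 84.3 ± 37.2 TPM in CSS, 18.3 ± 4.31 TPM with EGF, and 26.8 ± 10.5 TPM with NRG-1. Like *ACPP*, *OPRK1* was lower than in CSS both in FBS and at 4 hours.

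A list of 10 genes that mark ERK output was followed as well. All 10 rose at 4 hours with each ligand (median log2 fold changes 1.74 and 1.51), where 24.6% of all genes rose with EGF and 21.6% with NRG-1. *ETV4*, an ETS transcription factor, went from 0.0625 ± 0.0330 TPM in CSS to 8.85 ± 0.698 TPM with EGF and 8.70 ± 0.943 TPM with NRG-1. *DUSP6*, a phosphatase of ERK, went from 0.385 ± 0.0265 TPM to 13.7 ± 2.24 TPM and 7.19 ± 0.562 TPM. At 1 hour, when none of the secretory genes passed, 8 of the 10 rose with EGF (6% of all genes) and 7 with NRG-1 (4.45%). In FBS 1 rose and 4 fell (median -0.37), against 26% and 26.8% of all genes.

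**Figure D4:**
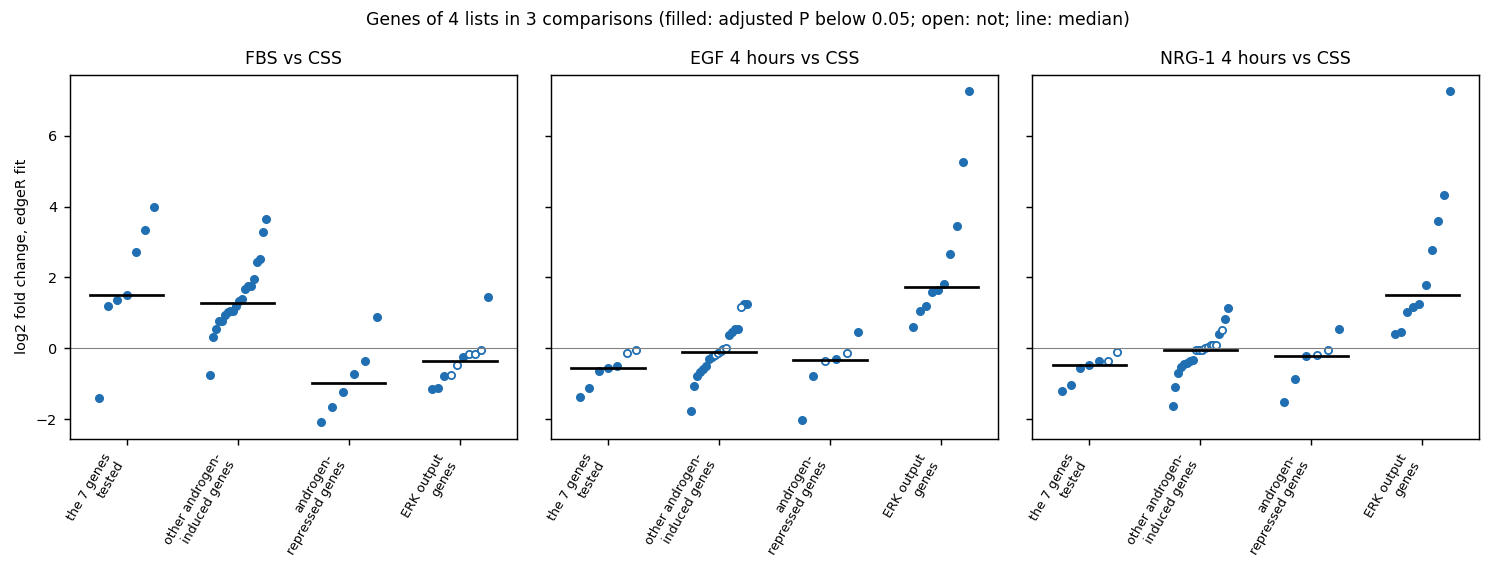
Log2 fold changes from the edgeR fit for the genes of 4 lists (the 7 secretory genes, 20 other androgen-induced genes, 6 androgen-repressed genes, and 10 ERK output genes) in 3 comparisons with CSS. Each point is a gene, filled where adjusted *P* was below 0.05, and lines are medians. In FBS the medians of the secretory and androgen-induced lists are 1.51 and 1.27, and at 4 hours the ERK medians are 1.74 and 1.51 while the secretory medians are -0.56 and -0.47.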

How the data were processed

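RNA from LNCaP cells was measured by polyA-captured, strand-specific RNA-Seq in 32 libraries. Per the labels and the study's methods, the authors trimmed reads with Trimmomatic 0.36 and aligned them with STAR 2.7.0f to hg19, and they deposited RSEM expected counts and TPM per gene. The annotation is not given in the sources used here. Reads assigned by expectation between similar genes can shift counts, and TPM depends on the transcript models.

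Expected counts were rounded and fitted with edgeR 4.0.16 (limma 3.58.1, R 4.3.3), with TMM normalization, group and batch as terms, and genes kept at 5 or more counts in at least 3 libraries. SE is the log2 fold change divided by the square root of F, and intervals use the fit's degrees of freedom. DESeq2 1.42.0 and limma on log2(TPM + 1) were alternatives. The fits were tested on simulated data. Groups follow the labels, in which replicates are called biological, with batch and replicate number shared across groups. Same-numbered libraries of a batch deviated together (r of 0.13 to 0.57 in all 112 pairs), and the replicate block was an alternative. With batch removed as well, r was -0.06 to 0.11 in batch 1 (over 0.1 in 1 of 28 pairs) and 0.07 to 0.43 in batch 2 (26 of 28), so in batch 1 the shared deviation was that of the batch. Depth was 63822654 to 92401724 counts per library.

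The 8 genes and the gene lists were chosen with earlier results of these data known. From each list, the 2 passing genes that rose most and the 2 that fell most against CSS could be named, in FBS and at 4 hours of each ligand. Some of these genes, and a list of transcription factors, are not reported here. The 8 genes are named in all groups, and the genes most like each are the 3 with the highest r. The batch test was added after the values were seen. Promoter sequences are from RefSeq (GRCh38.p14, 7 of 8 genes found), a different build from that of the reads.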

Additional observations from a re-analysis of the deposited data

Results flagged for a closer look

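In Dixon's test of the 4 libraries of a group, 2 values lay far from the rest of their group. The test was run on 64 sets of 4 libraries, the TPM of the 7 tested genes and the *KLK3* to *KLK2* ratio in each of 8 groups (*KLK11* was not tested), and about 1 in 20, or 3, would be marked by chance. *KLK2* in CSS was at 12.75 TPM in batch 1 replicate 2 against 8.33 to 8.70 TPM in the others. *KLK15* in the EGF 1-hour group was at 1.28 TPM in batch 2 replicate 1 against 1.39 to 1.41 TPM. Without the *KLK2* library every call on *KLK2* was as before.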

How the results depend on the processing

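Over the alternatives, 1752 values of the 7 tested genes were recomputed, with the value for summed *KLK2* and *KLK3* counts entered under both genes. Of these, 1742 kept their side of the threshold, 7 no longer passed, and 3 newly passed. Among values that passed in the main fit or the alternative, 0 reversed their direction. Some that passed in neither changed sign, such as *MSMB* with EGF at 4 hours (log2 difference -0.04 against CSS, 0.34 in batch 1 alone). With a log2 fold change beyond 1 required as well, 2 genes were left in each of the 4-hour comparisons (EGF against CSS, NRG-1 against CSS, and each ligand against its 1-hour group). Without the batch term 3 genes passed for NRG-1 at 4 hours against CSS, by that fit's larger spread. With the replicate block 7 genes passed for FBS and 5 for each 4-hour comparison, and it changed no call. The strict filter removed *MSMB* and left 6 genes for FBS. Leaving out each library in turn gave 7 genes for FBS, 5 for EGF, and 5 for NRG-1 at 4 hours every time. The newly passing values were *AZGP1* for NRG-1 at 4 hours against 1 hour in batch 1 alone (adjusted *P* = 0.0190 with edgeR) and *MSMB* in the same comparison with limma on log2 TPM (adjusted *P* = 0.0438 and 0.0324 with pseudocounts of 1 and 0.1), and the cause was not tested. *KLK15* (17 to 171 counts in a library) and *MSMB* (8 to 119) were limited most by depth.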
